A study of Sus scrofa domesticus with 28 samples.

Results

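The genes described here build the soft, water-holding matrix around hyaluronan. VCAN (versican) and ACAN (aggrecan) are large chondroitin sulphate proteoglycans, SHAS2 is the pig name of hyaluronan synthase 2, and TNFAIP6 encodes the secreted hyaluronan-binding protein TSG-6. Their probes were found by matching each probe's transcript accession to pig RefSeq records (assembly Sscrofa11.1, used for names only). This gave 4 of 3216 genes with a symbol and 7 of 43603 probes: 1 probe for VCAN, 3 for ACAN, 1 for SHAS2 and 2 for TNFAIP6. All 7 probes passed the filter on dim probes, which kept 24513 probes. Levels and differences below are those of the brightest probe of each gene unless another probe is named.

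The samples are 28 biopsies of skin or scar from 2 juvenile castrated male red Duroc pigs, numbered 49 and 50. The breed is used as a model of raised human scars. There were 4 biopsies of control skin, 4 of early sham-treated hyperpigmented (hyper) scar and 4 of early sham-treated hypopigmented (hypo) scar. Mid and late scar each had 2 biopsies, 1 per animal, of sham hyper, pressure hyper, sham hypo and pressure hypo scar. Biopsy RNA was labelled with Cy5 and hybridised against a universal pig reference RNA (Zyagen), labelled with Cy3, on every array. The labels name no scar site, and the title code a1 or a3 goes with hyper or hypo in every scar biopsy, so the code and pigmentation cannot be told apart. All mid and late pressure biopsies came from the right side and all sham ones from the left, so pressure and side cannot be told apart either. The titles of scar biopsies also carry a number whose unit the labels leave out. It was the same for all early biopsies and differed among mid and among late ones, so biopsies paired below need not share it.

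Hyaluronan is a long sugar chain without a protein core, which synthases in the cell membrane spin out into the matrix. Versican and aggrecan bind it through their amino-terminal domain and carry many chondroitin sulphate chains, which draw water into the tissue. Versican is a usual component of the provisional matrix of healing wounds, whereas aggrecan is best known from cartilage. TSG-6 is induced by inflammatory signals and transfers heavy chains of inter-alpha-inhibitor onto hyaluronan, which cross-links it.

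A level is the log2 ratio of biopsy to reference, so that 1 unit is a 2-fold step, and 0 is the level of the reference RNA. The reference differs from gene to gene, so levels are compared between samples and not between genes. Per array, 31.4 to 55.7% of probes had a Cy5 signal well above background. VCAN had one on all 28 arrays, ACAN and SHAS2 on 27 and TNFAIP6 on 25. Tests were made with limma over 18768 features with Benjamini-Hochberg adjustment at a threshold of 0.05, and errors after ± are standard errors (SE) unless marked SD. Since the biopsies come from 2 animals, p reflects the spread among these biopsies and not among pigs. In whole biopsies, more RNA per cell and more cells of a type cannot be told apart.

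**Figure D1:**
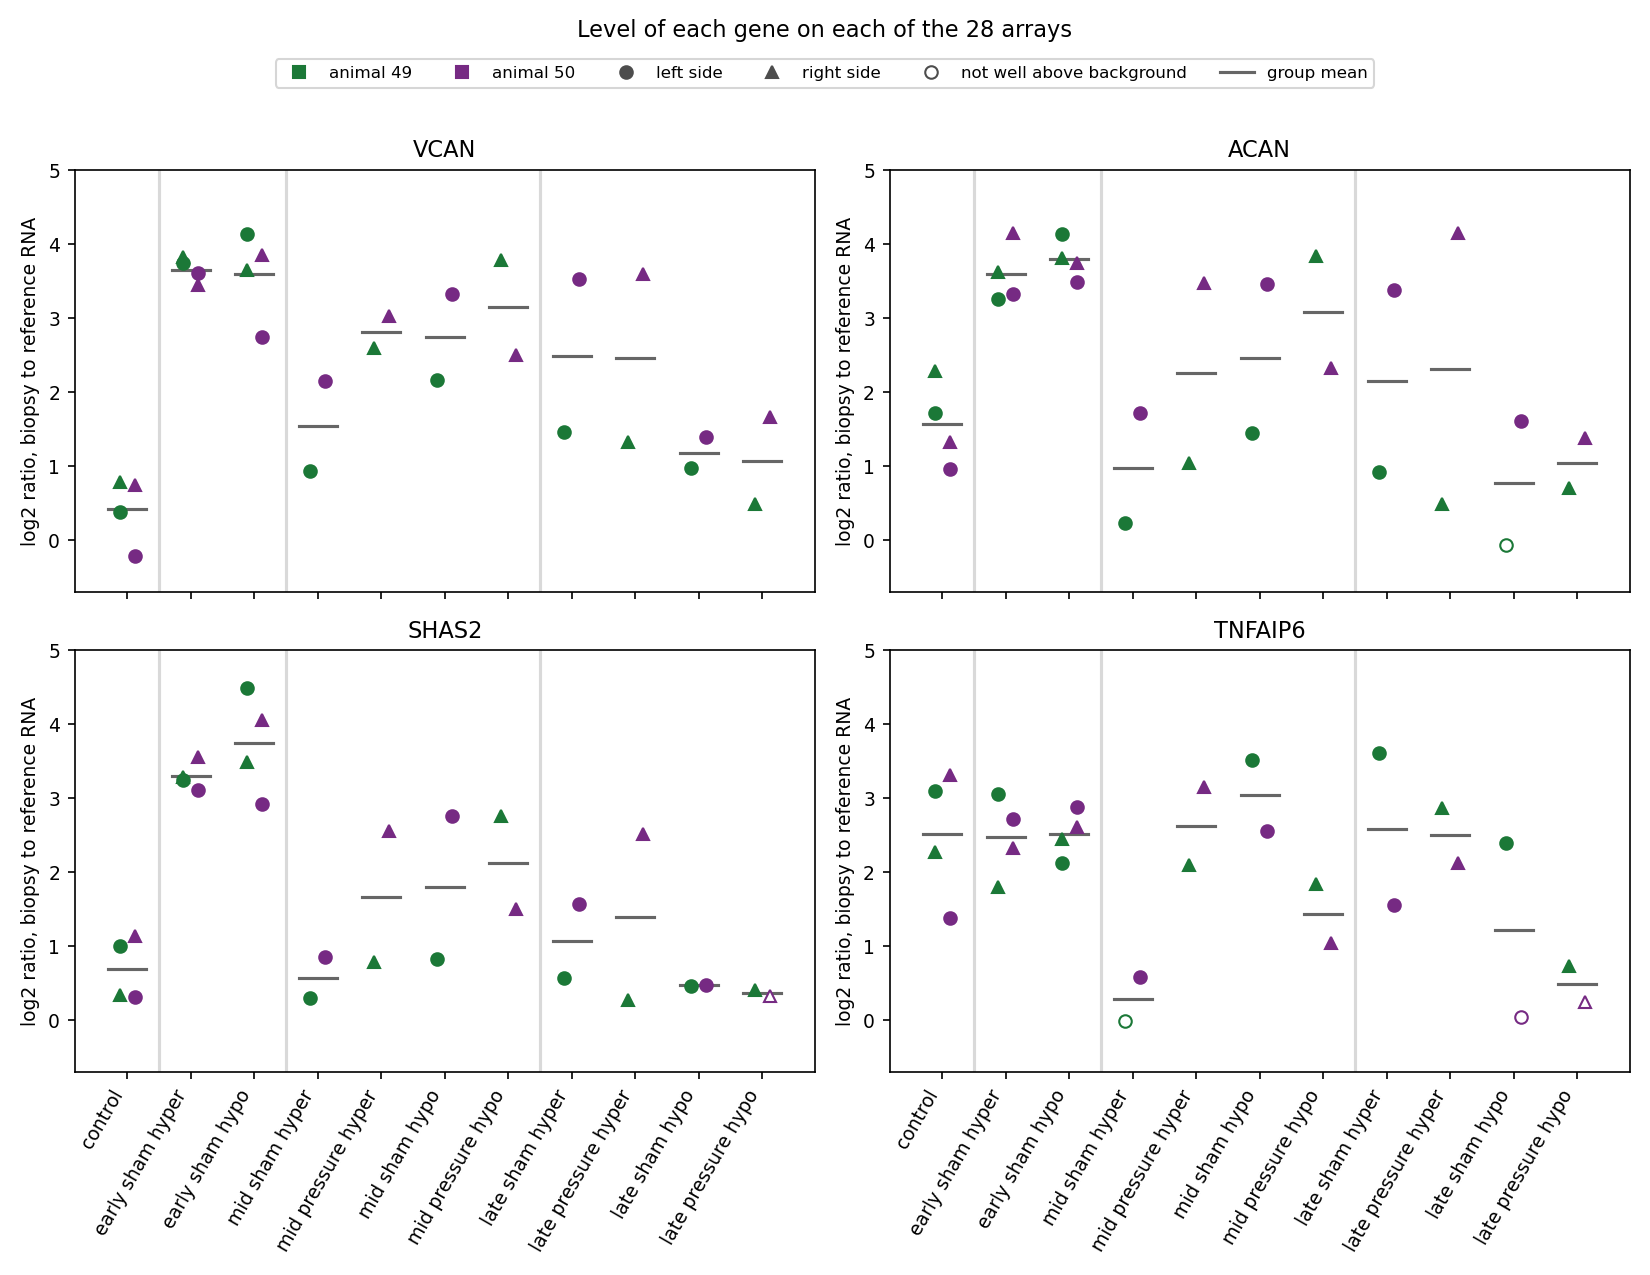
The log2 ratio of biopsy to reference RNA is plotted for each gene on each array, by group, with animals in colour, sides by symbol, open symbols for arrays not well above background and a bar for the group mean. SHAS2 was higher on each of the 8 early scar arrays than on any other array. VCAN and ACAN had their highest means in early scar. For each of them 5 of 8 mid and 6 of 8 late arrays lay below every early array, and the others lay within the early range. TNFAIP6 overlapped control skin in every phase.

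The first question was how each gene ran from control skin through early, mid and late scar. VCAN, ACAN and SHAS2 rose together in early scar, 9.21-fold, 4.37-fold and 7.07-fold over control skin, and TNFAIP6 did not pass the test. By late scar SHAS2 and ACAN averaged close to control skin, while VCAN was still 2.60-fold higher. All 3 genes fell from early to late sham scar. Scar against control skin used the same 4 control arrays at each phase, so the 3 comparisons share them.

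SHAS2, the synthase that makes long hyaluronan chains, stood at 0.34 and 1.0 in the right and left control skin of animal 49 and at 1.14 and 0.31 in that of animal 50. On the 8 early scar arrays it ran from 2.92 through a median of 3.39 to 4.49. In mid scar it ran from 0.30 through 1.18 to 2.76, and in late scar from 0.27 through 0.47 to 2.51. Every early scar array was above every control, mid and late array. In mid scar 4 of 8 arrays were above the highest control and 1 below the lowest. In late scar 2 were above and 1 below, and the 2 above were the hyper biopsies of animal 50.

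Early scar exceeded control skin in SHAS2 by 2.82 ± 0.40 on the log2 scale (limma adjusted p 1.95e-05). The mid difference was 0.84 ± 0.40 (adjusted p 0.109) and the late difference 0.13 ± 0.40 (adjusted p 0.825), neither past the threshold. Between sham biopsies SHAS2 fell by 2.33 ± 0.40 from early to mid scar (limma adjusted p 0.00554) and by 2.75 ± 0.40 from early to late scar (adjusted p 0.000407). Late against mid scar, over sham and pressure, was -0.72 ± 0.33 (adjusted p 0.42). In order of mean level the phases ran early, mid, late and control, and no neighbours after early scar differed past the threshold. The mid difference passed with the slide as a fixed block (1.32, adjusted p 0.0381). The fall to mid sham scar missed the threshold without the mid sham hypo array of animal 49 (-1.92, limma adjusted p 0.0721).

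VCAN, the large proteoglycan of provisional matrix, stood at 0.78 and 0.37 in the right and left control skin of animal 49 and at 0.75 and -0.22 in that of animal 50. In early scar it ran from 2.74 through a median of 3.70 to 4.14. In mid scar it ran from 0.94 through 2.55 to 3.79, and in late scar from 0.49 through 1.43 to 3.59. All 8 early and all 8 mid arrays were above the highest control array. Of the late arrays 7 were above it, and the remaining one, the pressure hypo biopsy of animal 49, lay within the control range.

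VCAN was 3.20 ± 0.41 higher in early scar (limma adjusted p 6.02e-06), 2.14 ± 0.41 higher in mid scar (4.41-fold, adjusted p 0.000625) and 1.38 ± 0.41 higher in late scar (adjusted p 0.0105). It fell by 1.48 ± 0.41 from early to mid sham scar (limma adjusted p 0.0355) and by 1.79 ± 0.41 from early to late sham scar (adjusted p 0.0059). Late against mid scar was -0.76 ± 0.33 (adjusted p 0.408). The order of mean levels was early, mid, late and control, and mid and late scar were the neighbours that did not differ past the threshold. Against the controls of the same animal, the late difference was 0.48 in animal 49 and 2.28 in animal 50. The late call was lost in animal 49 alone (limma adjusted p 0.0902) and without the left control array of animal 50 (1.09, adjusted p 0.0685). The fall to mid sham scar lost its call when any of 8 of the 12 arrays was left out (-1.71 to -1.25 over all 12, adjusted p 0.0146 to 0.202).

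ACAN, the proteoglycan that gives cartilage its resistance to compression, stood at 2.28 and 1.72 in the right and left control skin of animal 49 and at 1.32 and 0.96 in that of animal 50. In early scar it ran from 3.26 through a median of 3.68 to 4.16, and every early array was above every control array. In mid scar it ran from 0.24 through 2.02 to 3.83, with 4 of 8 arrays above the highest control and 1 below the lowest. In late scar it ran from -0.06 through 1.15 to 4.15, with 2 arrays above the controls and 4 below. The lowest late array, the sham hypo biopsy of animal 49, was not well above background.

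Early scar exceeded control skin in ACAN by 2.13 ± 0.55 (limma adjusted p 0.00427). The mid difference was 0.62 ± 0.55 (adjusted p 0.4) and the late difference 0.00 ± 0.55 (adjusted p 0.996, 95% interval -1.14 to 1.15). ACAN fell by 1.98 ± 0.55 from early to mid sham scar (limma adjusted p 0.0367) and by 2.23 ± 0.55 from early to late sham scar (adjusted p 0.00908). Late against mid scar was -0.62 ± 0.45 (adjusted p 0.603). Mean levels ran early, mid, late and control, the last 2 at 1.57 each, and no neighbours after early scar differed past the threshold. The fall to mid sham scar lost its call when any of 8 of 12 arrays was left out (-2.31 to -1.65 over all 12, limma adjusted p 0.0267 to 0.216) and with no replicate block for the animal (-1.98, adjusted p 0.0542). The fall to late sham scar lost it without the late sham hyper array of animal 49 (-1.78, adjusted p 0.0579).

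The late mean of ACAN joined animals that differed in sign. In animal 49 all 4 late biopsies were below both of its own control biopsies, with a mean difference of -1.49. In animal 50 all 4 were above both of its controls, with a mean difference of 1.5. With the other animal left out, each difference passed the test (limma adjusted p 0.000666 in animal 49 and 0.00968 in animal 50), where mid and late groups then had 1 array each and their spread was taken from the left and right biopsies of control skin and early scar. The difference between the animals was 2.98 ± 1.02 (unadjusted p 0.00764, limma adjusted p 0.999). In that comparison 0% of 18773 features passed with limma, and 844 had an unadjusted p under 0.05. The fibroblast marker score described further on was -1.17 to -0.84 in the late biopsies of animal 49 and -0.55 to 0.62 in those of animal 50. In all late biopsies of animal 49 but the sham hyper one, the number in the titles was higher than in any late biopsy of animal 50. The part of the score and of this number in the difference was not tested. How many other features lie below both controls in one animal and above both in the other was not counted.

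TNFAIP6, the inflammation-induced hyaluronan cross-linker, stood at 2.28 and 3.09 in the right and left control skin of animal 49 and at 3.31 and 1.38 in that of animal 50. In early scar it ran from 1.80 through a median of 2.53 to 3.06, inside the control range. In mid scar it ran from -0.01 through 1.97 to 3.51, and in late scar from 0.04 through 1.84 to 3.61. Both later phases had 3 of 8 arrays below the lowest control and 1 above the highest. The 3 arrays not well above background were the mid sham hyper biopsy of animal 49 and the late sham and pressure hypo biopsies of animal 50.

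The differences of TNFAIP6 from control skin were -0.02 ± 0.42 in early scar (limma adjusted p 0.979), -0.67 ± 0.42 in mid scar (adjusted p 0.23) and -0.82 ± 0.42 in late scar (adjusted p 0.129). From early sham scar it differed by -0.83 ± 0.42 in mid sham scar (limma adjusted p 0.241) and by -0.60 ± 0.42 in late sham scar (adjusted p 0.322), and late against mid scar was -0.15 ± 0.34 (adjusted p 0.892). No neighbours in the order control, early, mid and late differed past the threshold. The late difference passed with the mean of both probes (-1.0, limma adjusted p 0.0358) and with median centring in place of loess (-1.10, adjusted p 0.0411).

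**Figure D2:**
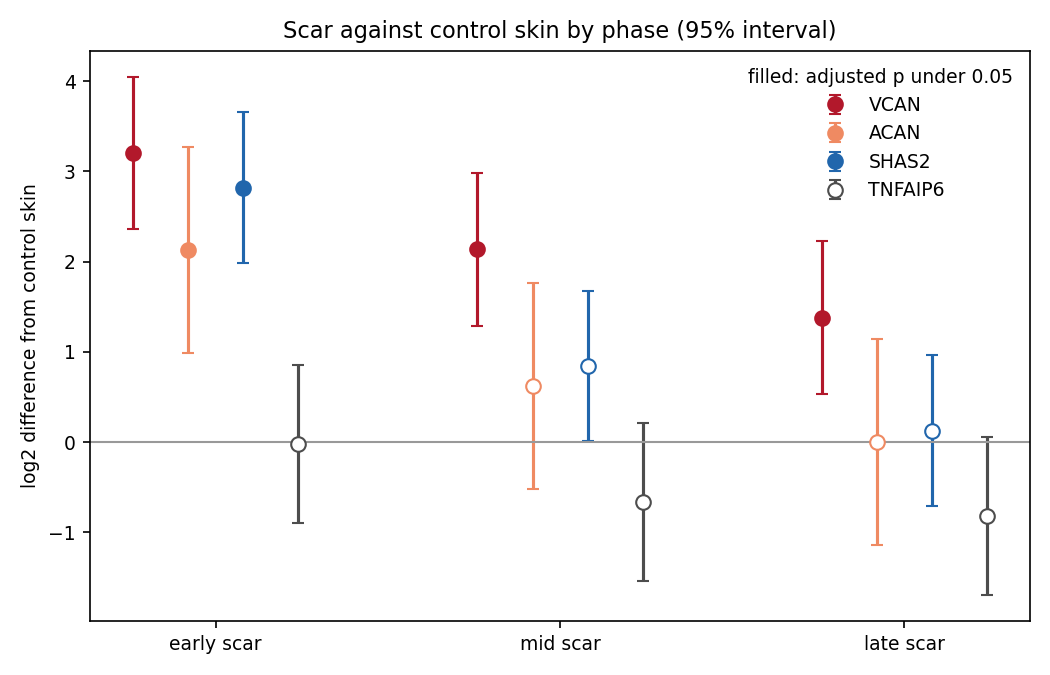
The log2 difference from control skin is plotted for each gene and phase, with the 95% interval of the limma fit as bars and filled points where the adjusted p was under 0.05. VCAN was higher in all 3 phases (3.20, 2.14 and 1.38), ACAN and SHAS2 passed in early scar alone, and TNFAIP6 in no phase.

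Across all features, 24.1% were called higher and 14.7% lower in early scar, against 3 higher and 0 lower of the 4 genes. In mid scar 22.1% were higher and 11.7% lower, and 1 of the 4 was higher. In late scar 26.3% were higher and 13.4% lower, and again 1 of the 4 was higher. The median differences of the 4 genes were 2.47 in early and 0.07 in late scar, beside 0.11 and 0.10 over all features. From early to mid sham scar 4.26% of features were lower, and from early to late sham scar 10.3% were lower and 9.67% higher, against 3 of the 4 genes lower in each. Late against mid scar called 0.00533% of features, and none of the 4.

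The cap on the local background, described with the processing, bore on these calls. Without it the early differences of VCAN (2.0, limma adjusted p 0.0129) and SHAS2 (1.62, adjusted p 0.0213) passed and that of ACAN did not (1.41, adjusted p 0.0909). VCAN then missed the threshold in mid (1.41, adjusted p 0.0736) and late scar (0.96, adjusted p 0.21), and no fall from early sham scar passed for any of the 4 genes.

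Within slides that held both scar and control arrays, VCAN was higher in early scar by 2.66 and 3.97 (2 slides), in mid scar by 2.54 and 3.23 (2 slides) and in late scar by 0.42 to 1.54 (3 slides). SHAS2 was higher within slides by 3.22 and 3.46 in early scar and by 1.69 and 2.42 in mid scar, and its late differences were -0.61 to -0.01, where those of ACAN were -1.58 to -0.47. ACAN was higher within slides in early scar by 1.87 and 2.82 and in mid scar by 1.18 and 2.32. TNFAIP6 differed within slides by 0.05 and 1.15 in early scar and had differences of both signs in mid scar (-1.36 and 0.28) and late scar (-2.03 to 1.49). These rest on 1 or 2 arrays a side and carry no test.

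Other probes of the same genes were read separately, in a fit of single probes. For ACAN, probe A_72_P443789 was 1.81 ± 0.56 higher in early scar (limma adjusted p 0.0152) and fell by 2.12 ± 0.63 from early to late sham scar (adjusted p 0.0274). From early to mid sham scar it was not called (-1.68 ± 0.56, limma adjusted p 0.0813), where the brightest probe was. The third ACAN probe, A_72_P193007, was dim, well above background on 11 of 28 arrays, and differed by -0.10 ± 0.18 in early scar (adjusted p 0.697). For TNFAIP6, probe A_72_P032536 was lower in mid scar (-0.96 ± 0.35, limma adjusted p 0.0392) and in late scar (-1.18 ± 0.35, adjusted p 0.0112), where the brightest probe was not called. What part of the transcript each probe reads is not given in the sources used here.

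Over the 28 arrays, which share the reference RNA and the phases, Pearson correlations were 0.87 between VCAN and SHAS2, 0.86 between VCAN and ACAN and 0.90 between ACAN and SHAS2. Among the 24 scar arrays they were 0.90, 0.93 and 0.91. TNFAIP6 correlated with the others at 0.20 to 0.33. Among 2384 named genes with no missing value, the most alike to VCAN were ASPN (0.94), SELENOM, COL5A2, CDH11 and OLFML2B. ACAN was most like TNC (0.93), then PTN, CDH11, OLFML2B and CKAP4. SHAS2 was most like ANGPTL2 (0.96), then PPT2, MMP11, ITGA2B and C1QTNF2, and TNFAIP6 was most like LOC641352 (0.81), CYBRD1, NUTF2, PLEKHF1 and C4BPA. ASPN (asporin) and COL5A2 are matrix genes, and TNC encodes tenascin-C, a matrix glycoprotein that binds lecticans, the family of versican and aggrecan.

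The next comparison asked whether hyper and hypo scars differed. In early and mid scar no gene of the 4 passed the test. In late scar all 4 averaged higher in hyper than in hypo biopsies, and TNFAIP6 passed narrowly (3.21-fold). In mid scar all 4 averaged lower in hyper biopsies, without passing. The comparison of hyper with hypo thus had opposite signs in mid and late scar, and this change passed for TNFAIP6.

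In late scar TNFAIP6 stood at 3.61 in the sham and 2.87 in the pressure hyper biopsy of animal 49, and at 2.40 and 0.74 in its hypo biopsies. In animal 50 it stood at 1.56 and 2.13 in the hyper biopsies and at 0.04 and 0.25 in the hypo biopsies. Hyper was higher in 4 of 4 pairs of the same animal and side, by 1.21 to 2.13, although the highest hypo biopsy was above 2 of the hyper biopsies. The number in the titles was higher for hypo in the left pair of animal 49 and the right pair of animal 50, and equal in the other pairs. The difference was 1.68 ± 0.48 (limma adjusted p 0.0485), where 0.506% of all features were called higher. The call was lost when any of 6 of the 8 arrays was left out (1.15 to 2.22 over all 8, adjusted p 0.0159 to 0.287), with no replicate block for the animal (1.68, adjusted p 0.0526) and with the mean of both probes (1.44, adjusted p 0.0523). Without the late hypo arrays of animal 50, which had the lowest share of detected probes (31.4 and 33.9%), the difference was 1.07 (limma adjusted p 0.367). In the fit of single probes neither TNFAIP6 probe was called. The brightest was at 1.68 ± 0.49 (limma adjusted p 0.0642) and A_72_P032536 at 1.20 ± 0.40 (adjusted p 0.101).

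VCAN in late scar stood at 1.46 and 1.32 in the sham and pressure hyper biopsies of animal 49 and at 0.98 and 0.49 in its hypo biopsies. In animal 50 the hyper biopsies were at 3.52 and 3.59 and the hypo biopsies at 1.39 and 1.66. Hyper was higher in 4 of 4 pairs, and the groups overlapped across animals. The difference was 1.35 ± 0.47 (limma adjusted p 0.101), which passed with median centring in place of loess (1.53, adjusted p 0.0262).

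ACAN in late scar stood at 0.92 and 0.48 in the sham and pressure hyper biopsies of animal 49 and at -0.06 and 0.70 in its hypo biopsies. In animal 50 it stood at 3.39 and 4.15 in hyper and at 1.61 and 1.39 in hypo biopsies. SHAS2 followed the same layout, at 0.57 and 0.27 against 0.46 and 0.41 in animal 49, and at 1.57 and 2.51 against 0.48 and 0.33 in animal 50. For both genes the hyper biopsies of animal 50 stood clear of the others, and 3 of 4 pairs were higher in hyper. Neither difference passed (ACAN 1.33 ± 0.63, limma adjusted p 0.231, and SHAS2 0.81 ± 0.46, adjusted p 0.322).

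Skeletal muscle transcripts were high in pressure hyper biopsies of animal 49. The muscle marker score was 5.09 in the late pressure hyper and 4.36 in the mid pressure hyper biopsy of animal 49, and 3.27 in the left early hypo biopsy of animal 50. Without these 3 arrays the late hyper against hypo difference passed for VCAN (1.84, limma adjusted p 0.0325) and ACAN (2.13, adjusted p 0.0472) and not for TNFAIP6 (1.63, adjusted p 0.0841). This setting was chosen after seeing the data.

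In mid scar the hyper against hypo differences were -0.77 ± 0.47 for VCAN, -1.15 ± 0.63 for ACAN, -0.84 ± 0.46 for SHAS2 and -0.78 ± 0.48 for TNFAIP6 (limma adjusted p 0.575 to 0.617). With 1 animal left out each mid group held a single array. In animal 49 alone the differences of the 4 genes were then -2.0 to -1.21, and in animal 50 alone TNFAIP6 was at 0.07. In early scar they lay between -0.44 and 0.06 (adjusted p 0.998), with the 4 hyper and 4 hypo arrays of each gene overlapping. With limma 0% of features passed in early scar and 0% in mid scar, where 868 and 1764 had an unadjusted p under 0.05. Over all phases the differences were -0.16 to 0.29 (adjusted p 0.999), where 0.0160% of features were called. The exact two-sided sign-flip permutation test over the 12 pairs gave p of 0.532 to 0.979 for the 4 genes, the smallest p it allows being 0.000488. These pairs were not matched for the number in the titles, which differed within some mid and late pairs.

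From mid to late scar the hyper minus hypo difference changed by 2.46 ± 0.69 for TNFAIP6 (limma adjusted p 0.0327), by 2.11 ± 0.66 for VCAN (adjusted p 0.0555), by 2.48 ± 0.89 for ACAN (adjusted p 0.0922) and by 1.65 ± 0.65 for SHAS2 (adjusted p 0.124). This comparison was added after seeing the data, and 7.59% of features were called in it. The second TNFAIP6 probe, A_72_P032536, was not called in the fit of single probes (1.84 ± 0.57, limma adjusted p 0.0601). The TNFAIP6 call was lost when any of 9 of 16 arrays was left out (1.93 to 3.0 over all 16, adjusted p 0.0108 to 0.121). It was also lost in 6 of 15 other settings (1.62 to 4.04 over all 15, adjusted p 0.00211 to 0.48), among them no cap on local background (2.13, adjusted p 0.331) and no filter on dim probes (2.46, adjusted p 0.0513). From early to late scar the change of TNFAIP6 was 1.72 ± 0.69 (limma adjusted p 0.152), and none of the 4 genes passed, where 4.88% of features were called.

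**Figure D3:**
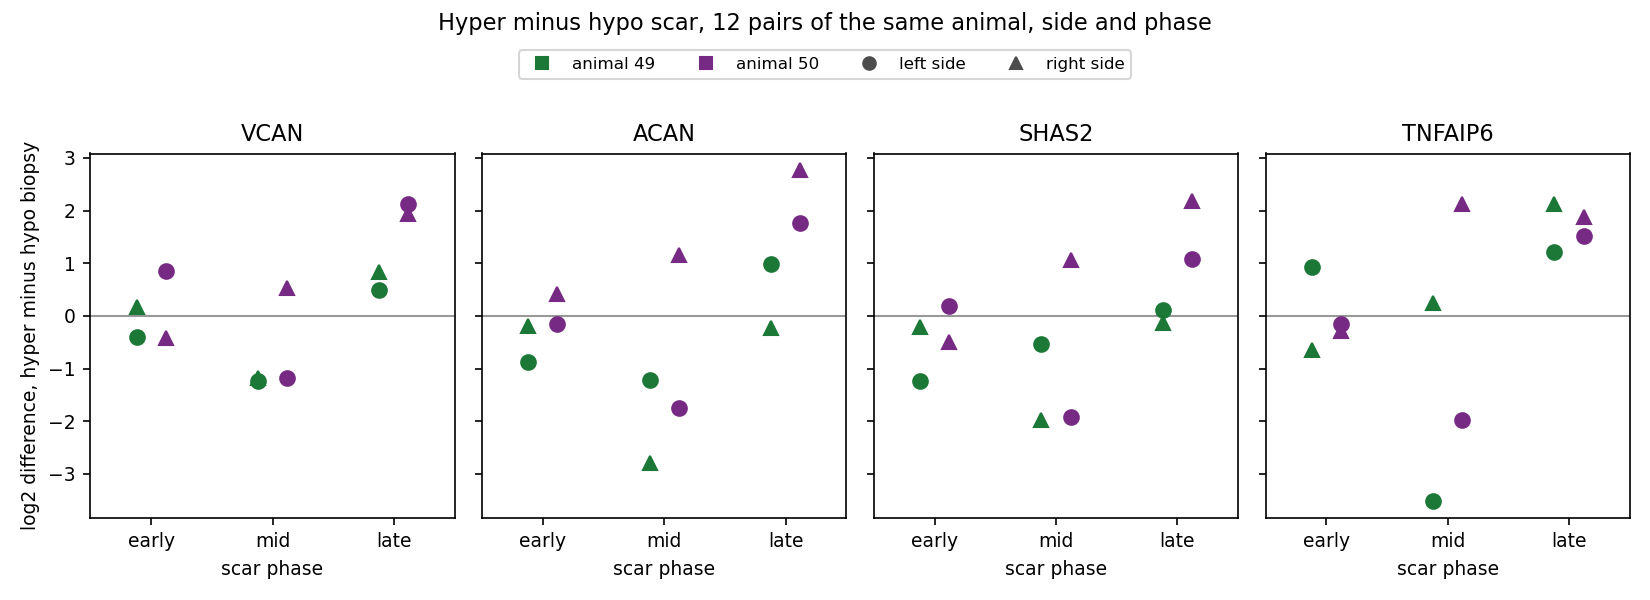
The log2 difference of hyper minus hypo biopsy is plotted for each gene in 12 pairs of the same animal, side and phase, animals in colour and sides by symbol. In late scar the 4 pairs were above 0 for VCAN and TNFAIP6, and in mid scar 3 of 4 pairs were below 0 for VCAN, ACAN and SHAS2. The pairs were not matched for the number in the titles.

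The third comparison was pressure against sham treatment in mid and late scar. No gene of the 4 passed in either phase or over both. In mid scar VCAN, ACAN and SHAS2 were higher under pressure in 3 of 4 pairs of the same animal and pigmentation, and the hypo pair of animal 50 went the other way. The fibroblast marker score, explained further on, was higher under pressure in the same 3 pairs (-0.92 and -0.19, -0.48 and -0.01, and -1.08 and 0.41 in sham and pressure) and stood at 0.28 and 0.24 in the fourth. The number in the titles was the same within the hyper pair of animal 49. It was lower under pressure in the hyper pair of animal 50 and the hypo pair of animal 49, and higher in the hypo pair of animal 50. The part of the score and of this number in the differences was not tested. TNFAIP6 was higher under pressure in both mid hyper pairs and lower in both mid hypo pairs.

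For VCAN, the mid sham and pressure biopsies stood at 0.94 and 2.60 (animal 49, hyper), 2.15 and 3.02 (animal 50, hyper), 2.17 and 3.79 (animal 49, hypo) and 3.32 and 2.5 (animal 50, hypo). ACAN stood at 0.24 and 1.04, 1.71 and 3.48, 1.45 and 3.83, and 3.46 and 2.32 in the same order of pairs. SHAS2 stood at 0.30 and 0.78, 0.85 and 2.56, 0.83 and 2.76, and 2.76 and 1.5. In all 3 genes the sham and pressure groups overlapped, and the sham hypo biopsy of animal 50 was among the highest.

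The mid pressure minus sham difference was 0.83 ± 0.47 for VCAN, 0.95 ± 0.63 for ACAN and 0.71 ± 0.46 for SHAS2 (limma adjusted p 0.999 each). In late scar the differences of the 4 genes lay between -0.40 and 0.22 (adjusted p 0.963 to 0.992). Over both phases they were 0.38 for VCAN (95% interval -0.31 to 1.07), 0.58 for ACAN (-0.35 to 1.51), 0.41 for SHAS2 (-0.27 to 1.09) and -0.02 for TNFAIP6 (-0.73 to 0.69). With limma 0% of features passed over both phases, 0% in mid scar and 0% in late scar, where 959, 851 and 1059 had an unadjusted p under 0.05. The exact two-sided sign-flip permutation test over the 8 pairs gave p of 0.211 to 0.984, the smallest p it allows being 0.00781. In animal 49 alone, where each mid and late group held a single array, the differences over both phases were 0.66 for VCAN and 0.88 for ACAN.

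Right against left early scar, where both sides were sham, was 0.13 ± 0.49 for VCAN, 0.28 ± 0.66 for ACAN, 0.15 ± 0.49 for SHAS2 and -0.40 ± 0.49 for TNFAIP6 (limma adjusted p 1 each), with 0% of features called and 257 at an unadjusted p under 0.05.

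TNFAIP6 in mid hyper scar stood at -0.01 in the sham and 2.09 in the pressure biopsy of animal 49, and at 0.59 and 3.15 in those of animal 50. In mid hypo scar it stood at 3.51 in the sham and 1.84 in the pressure biopsy of animal 49, and at 2.56 and 1.04 in those of animal 50. The order of sham and pressure was thus opposite in hyper and hypo scar, on 2 arrays a side. How many other features show such opposite orders was not counted. The macrophage marker score was higher under pressure in both hyper pairs (-0.61 and -0.42 in animal 49, -0.17 and 1.19 in animal 50) and lower in both hypo pairs (0.99 and 0.49, 0.18 and -0.44). The keratinocyte score moved the opposite way in all 4 pairs (1.02 and 0.41, 1.25 and -0.79 in hyper, -0.65 and -0.26, -0.34 and 0.55 in hypo). That score rests on 2 measured genes, DSG1 and EPCAM. The part of these cell types was not tested. The pressure effect in hyper minus that in hypo scar was 3.93 ± 0.97 (unadjusted p 0.000609, limma adjusted p 0.0508), where 1.15% of features were called. The second TNFAIP6 probe gave 3.48 ± 0.80 (limma adjusted p 0.056). The value passed under 7 of 15 alternative settings (3.42 to 5.92 over all 15, adjusted p 0.0105 to 0.202), such as the slide as a fixed block (4.72, adjusted p 0.011). Without 1 array at a time it ran from 3.15 to 4.70 (adjusted p 0.0122 to 0.311). The mid sham hyper biopsy of animal 49, the lowest for TNFAIP6, had the highest hair and gland score of the scars (2.63). Without it and the left early hyper biopsy of animal 49 (score 2.44) the value was 3.42 (adjusted p 0.202). For VCAN, ACAN and SHAS2 the same quantity was 0.66 to 0.87 (adjusted p 0.646 to 0.815).

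**Figure D4:**
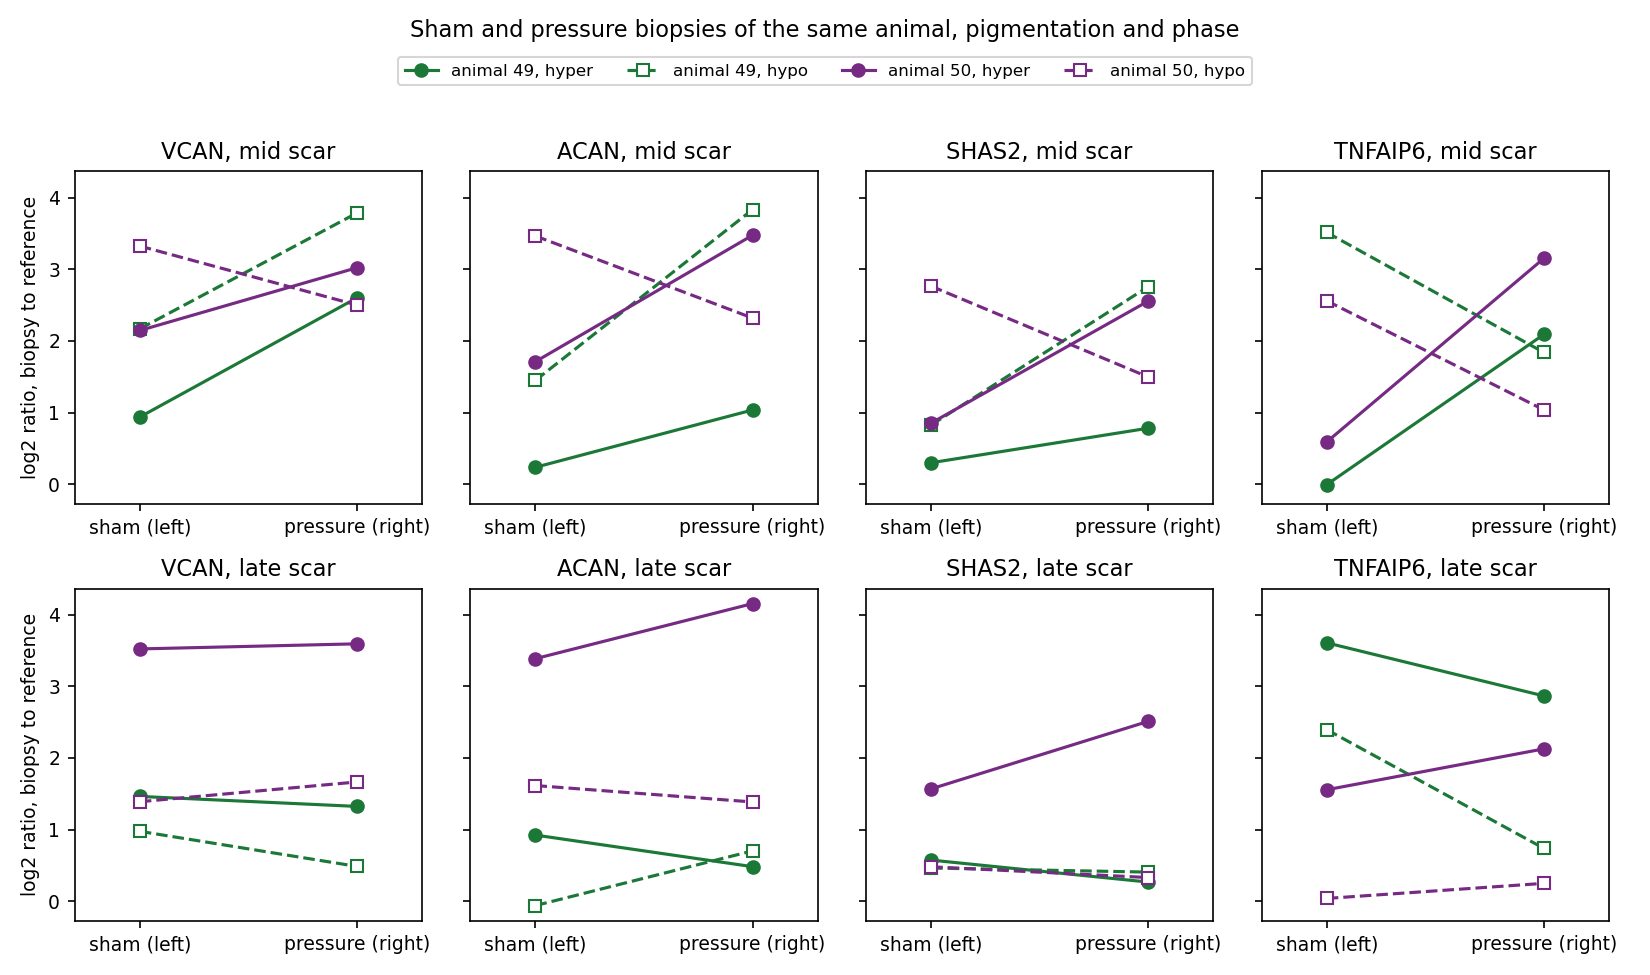
The log2 ratio of biopsy to reference is plotted for sham and pressure biopsies, joined within animal and pigmentation, for each gene in mid (upper row) and late scar (lower row). The TNFAIP6 lines cross in mid scar, rising from -0.01 and 0.59 in hyper pairs and falling from 3.51 and 2.56 in hypo pairs.

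Other genes of hyaluronan and proteoglycan metabolism were read from fixed lists, together with a list of inflammatory genes. Of these lists 22 genes other than the 4 were measured. The 22 include CCL2, IL1A, IL1B, IL6, TNF and PTGS2, so the counts below do not describe hyaluronan and proteoglycan genes alone. In early scar 7 of the 22 were higher and 3 lower than in control skin (median 0.35, beside 0.11 over all features), where 24.1% and 14.7% of all features were called. In mid scar 3 were higher and 3 lower, beside 22.1% and 11.7% of all features. In late scar 7 were higher and 3 lower (median 0.21), beside 26.3% and 13.4%. The early and late shares of the 22 genes lay near those of all features. From early to late sham scar 1 was higher and 4 were lower, beside 9.67% and 10.3% of all features. Pressure against sham called none of the 22. None of the 6 listed hyaluronan receptors (CD44, HMMR, LAYN, LYVE1, STAB1 and STAB2) matched a named probe, so receptors were not analysed here.

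Of the other synthases, HAS3 was lower than in control skin by 1.59 ± 0.20 in early (limma adjusted p 4.74e-06), 1.54 ± 0.20 in mid (1.44e-05) and 1.64 ± 0.20 in late scar (5.17e-06). Its signal was well above background on 4 of 4 control arrays and on 1, 2 and 2 of the 8 arrays of each scar phase, so the sizes of these differences rest mostly on scar signals at background. HAS1 was 0.63 ± 0.32 higher in early scar (adjusted p 0.126). Thus the 3 synthase genes did not move as a group in early scar: SHAS2 was called higher, HAS3 lower and HAS1 was not called.

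Among genes whose products break hyaluronan down, 1 of 3 passed in early scar. It was HYAL1, a lysosomal hyaluronidase, whose signal was well above background on 0 of 4 control and 4 of 8 early arrays. HYAL2, a hyaluronidase anchored to the cell surface, was 0.55 ± 0.21 higher in late scar (limma adjusted p 0.0473). HYAL3 was well above background on 2 of 4 control and 0 of 8 late arrays.

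Of 6 measured hyaluronan-binding and cross-linking genes, TNFAIP6 included, 1 was higher in early scar. HAPLN3, a link protein that ties lecticans to hyaluronan, was 0.60 ± 0.12 higher in early scar (limma adjusted p 0.00078) and fell by 0.37 ± 0.12 from early to late sham scar (adjusted p 0.0398). In late scar 4 were higher: ITIH2 (0.83 ± 0.22, adjusted p 0.00532), ITIH4 (1.16 ± 0.34, 0.011), AMBP (0.80 ± 0.27, 0.0229) and ITIH1 (0.72 ± 0.24, 0.0246). All 4 stood far below the reference RNA in every phase, with mean levels from -4.66 (ITIH4, control skin) to -3.30 (ITIH1, late scar). Their signals were well above background on every array. ITIH1 and ITIH2 encode the heavy chains that TSG-6 transfers, and AMBP encodes bikunin, the light chain of the same protein. ITIH2 (0.70 ± 0.22, limma adjusted p 0.0187) and ITIH4 (1.09 ± 0.34, adjusted p 0.0197) were already higher in mid scar. None of the 6 was called higher in late than in early sham scar, or in late than in mid scar.

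Both measured binding partners of the lecticans were higher in early scar. TNC, tenascin-C, was 2.21 ± 0.52 higher (limma adjusted p 0.00232) and fell by 2.17 ± 0.52 from early to late sham scar (adjusted p 0.00831). FBN1, fibrillin-1 of the microfibrils, was 1.40 ± 0.25 higher (adjusted p 0.000214) and fell by 1.58 ± 0.25 (adjusted p 0.000683). FBN1 was also the single one of the 22 genes called between late hyper and hypo scar, higher by 1.09 ± 0.29 in hyper (limma adjusted p 0.0344). Its difference changed by 1.96 ± 0.41 from mid to late scar (adjusted p 0.00867).

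Of the lectican-cleaving proteases, ADAMTS8 was lower in early scar by 1.09 ± 0.19 (limma adjusted p 0.000127) and in mid scar by 0.82 ± 0.19 (adjusted p 0.00255), and rose by 0.85 ± 0.19 from early to late sham scar (adjusted p 0.00462). ADAMTS1 was at 0.27 ± 0.34 in early scar (adjusted p 0.56). CHSY1, which lengthens chondroitin sulphate chains, was 0.96 ± 0.20 higher in early scar (adjusted p 0.000769) and fell by 0.72 ± 0.20 from early to late sham scar (adjusted p 0.0167). It was the 1 measured gene of 24 listed for that synthesis. SDC4, a cell surface proteoglycan, was called in no phase.

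TNFAIP6 is known as a gene induced by inflammatory cytokines, so 5 cytokine and chemokine genes and PTGS2, which encodes the inflammatory enzyme cyclooxygenase-2, were read beside it. CCL2, which attracts monocytes, was higher by 1.26 ± 0.40 in early (limma adjusted p 0.0161), 1.25 ± 0.40 in mid (0.0204) and 1.68 ± 0.40 in late scar (0.00235). IL6 was 0.72 ± 0.27 higher in early (adjusted p 0.0394) and 1.12 ± 0.27 higher in late scar (0.00243), with a signal well above background on 2 of 4 control arrays. IL1A was lower by 0.71 to 0.80 in all 3 phases. Its signal was well above background on 4 of 4 control arrays and on 5, 2 and 2 of the 8 arrays of early, mid and late scar. The sizes of these differences thus rest in large part on scar signals at background. TNF, IL1B and PTGS2 were called in none.

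**Figure D5:**
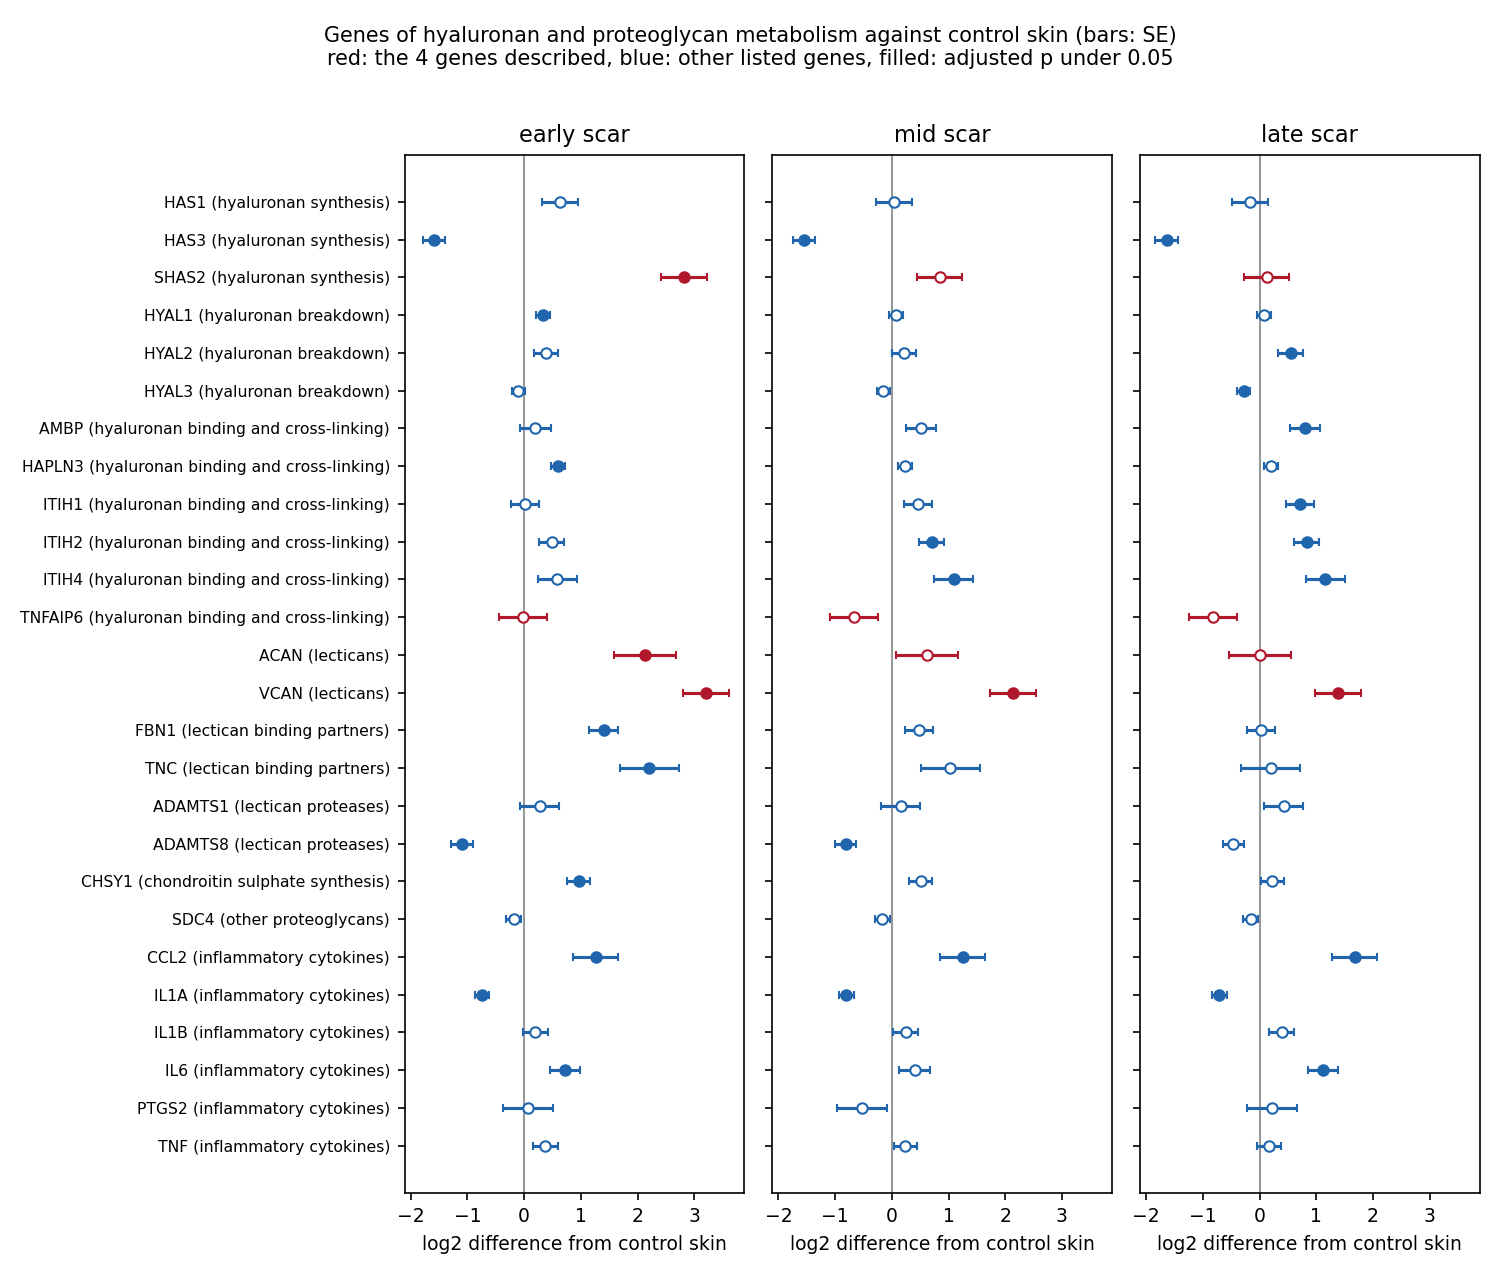
The log2 difference from control skin with its SE is plotted for the 4 genes (red) and the 22 other listed genes (blue) in each phase, with filled points where the limma adjusted p was under 0.05. SHAS2 (2.82), ACAN (2.13) and VCAN (3.20) lie far to the right in early scar beside TNC (2.21). HAS3 (-1.59) lies to the left, with a signal well above background on 1 of 8 early arrays.

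Cell type markers moved with the same comparisons. Marker scores are the mean over a list of the log2 ratio after subtracting each gene's median over the 28 arrays. Of 8 listed fibroblast markers 4 were measured (COL1A2, DCN, LUM and THY1), and 4 of 4 were higher in early scar with a median difference of 2.27. In late scar 1 of 4 was higher, beside 26.3% of all features. From early to late sham scar 2 of 4 fell, beside 10.3% of all features. The fibroblast score was -2.22 to -0.75 in control skin, 0.20 to 1.40 in early, -1.08 to 0.41 in mid and -1.17 to 0.62 in late scar. Macrophage markers were higher in early scar for 5 of 6 genes, and endothelial markers for 4 of 5, where 24.1% of all features were higher. The part of these cell types in the course of VCAN, ACAN and SHAS2 was not tested.

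Of 15 listed cartilage and tendon markers 2 were measured, SOX9 and TNMD. SOX9 was well above background on 6 of 28 arrays and TNMD on 13, of which 4 each were control arrays. Both were called lower than in control skin in early, mid and late scar (medians -1.10, -1.09 and -1.23), with scar signals mostly at background. The part of such cells in the level of ACAN was not tested. COL10A1 was on the array and well above background on 2 of 28 arrays. The hair and gland score was 4.39 to 4.92 in control skin, -0.38 to 0.40 on 22 scar arrays, and 2.44 and 2.63 on the remaining 2. The skeletal muscle score was -0.74 to -0.51 in control skin and above 3 on 3 scar arrays. Without those 3 arrays the differences of the 4 genes from control skin kept their calls, and that of SHAS2 in mid scar passed (1.04, limma adjusted p 0.0182).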

How the data were processed

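RNA of 28 biopsies was hybridised to 2-colour Agilent pig arrays, Cy5 for the biopsy and Cy3 for the reference RNA, with no dye swap. Spot intensities were deposited by the authors as extracted with Agilent Feature Extraction 10.7.1.1, per the file headers, which also hold a log10 ratio of red over green computed by that program. The authors' deposited value table was log2 of the ratio of the program's processed signals. It is used as an alternative here. The median signals were corrected with normexp (offset 50) after each array's local background was capped at its 99th percentile. The cap was set since single background values reached 649958. Ratios were then normalized within arrays by loess, and probes well above background on at least 4 arrays were kept, the brightest probe standing for a gene. Of 43603 probes, 6924 matched a RefSeq symbol, of 3216 genes.

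limma 3.58.1 in R 4.3.3 fitted 11 groups with the animal as a block. Animal numbers come from the sample titles, so same-numbered samples are from the same pig. Levels of single features were compared at an adjusted p threshold of 0.05 (Benjamini-Hochberg). Alternatives were the background cap, the scanner program's processed signals, the value table, median centring, the filter on dim probes, the mean of probes, slide and animal blocks, each animal alone and each array left out. Beside the 4 genes, those of the fixed lists and the 5 most correlated with each gene were named. Members and lists were chosen with earlier results of these data known. The number in the titles, whose unit the labels leave out, entered no fit and was not used to match pairs. Probe sequences and genome positions were not analysed here, and the number of arrays limits the precision.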

Additional observations from a re-analysis of the deposited data

Results flagged for a closer look

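ACAN in late scar moved in opposite directions in the 2 animals when each was set against its own control skin. All 4 late biopsies of animal 49 were below both of its controls and all 4 of animal 50 above both of theirs, a difference between the animals of 2.98 ± 1.02 on the log2 scale (limma adjusted p 0.999 over all features). This pattern was found by looking for opposite signs in the 4 genes, and other features that show it were not counted. The numbers in the titles of the late biopsies also differed between the animals.

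TNFAIP6 in mid scar was higher under pressure in both hyper pairs and lower in both hypo pairs. These opposite signs were looked for in the same way, and other features that show them were not counted. The pressure effect in hyper minus that in hypo scar was 3.93 ± 0.97 (limma adjusted p 0.0508).

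The hyper minus hypo difference of TNFAIP6 changed from mid to late scar by 2.46 ± 0.69 (limma adjusted p 0.0327), which passed the test of the difference between phases but lost its call under 6 of 15 alternatives. Dixon's criterion was read in 12 combinations of gene and group, in control skin, early hyper scar and early hypo scar. None of the 12 held an array that stood apart from the others of its group. The mid and late groups held too few arrays to be looked at.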

How the results depend on the processing

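Over the alternatives to the 4 genes' comparisons, 1507 values kept their direction and side of the threshold, 74 lost a call, 46 gained one and 117 changed sign. The early rise of VCAN and SHAS2 kept its call under every alternative, and the cause of the changes below was not tested. Values are log2 differences, and differences without a group name are hyper minus hypo.

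Without the background cap the calls lost, beside one given further on, were VCAN mid (1.41) and late against control (0.96), mid (-0.75) and late against early (-1.07). They were also ACAN early against control (1.41), mid (-1.52) and late against early (-1.74), SHAS2 mid (-1.24) and late against early (-1.70), and TNFAIP6 hyper against hypo in late scar (1.27). Signs turned for VCAN early hyper against hypo (-0.22) and late pressure (0.07), ACAN late against control (-0.22) and TNFAIP6 mid against early (0.21). They also turned for TNFAIP6 hyper against hypo over all phases (-0.01), pressure (0.03), mid pressure (-0.37) and late pressure (0.43). With the scanner program's processed signals or the authors' value table, the calls of mid against early were lost for VCAN (-1.53) and ACAN (-1.67). Signs turned there for ACAN late against control (-0.17), SHAS2 late pressure (-0.28) and TNFAIP6 pressure (0.43).

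With median centring VCAN late hyper against hypo (1.53) and TNFAIP6 late against control (-1.10) passed, and signs turned for VCAN early hyper against hypo (-0.09), VCAN late pressure (0.08) and ACAN late against control (-0.28). With no filter on dim probes, mid against early for VCAN (-1.48) and ACAN (-1.98) and TNFAIP6 late hyper against hypo (1.68) were lost. With the mean of probes TNFAIP6 late against control passed (-1.0), TNFAIP6 late hyper against hypo was lost (1.44), and ACAN turned in late against control (-0.07), hyper against hypo over all phases (0.14) and early hyper against hypo (0.23).

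With no replicate block for the animal, ACAN mid against early (-1.98) and TNFAIP6 late hyper against hypo (1.68) lost their calls, and the block changed no other call of these 4 genes. With the slide as a fixed block, SHAS2 mid against control passed (1.32), and VCAN (-1.72) and ACAN (-2.27) mid against early and ACAN late against early (-2.46) were lost. Signs turned for VCAN early hyper against hypo (-0.07), VCAN late pressure (0.20), ACAN late against control (-0.08), SHAS2 hyper against hypo over all phases (0.01) and TNFAIP6 early against control (0.49). With the slide as a random block they turned for ACAN late (-0.02) and TNFAIP6 early against control (0.05).

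In animal 49 alone, where mid and late groups hold 1 array that is assumed to vary like the other groups, VCAN late against control was lost (0.48). Calls gained were late against mid for VCAN (-1.31) and ACAN (-1.13), mid hyper against hypo for VCAN (-1.21), ACAN (-2.0), SHAS2 (-1.25) and TNFAIP6 (-1.63), and ACAN over all phases (-0.72). Pressure passed for VCAN (0.66) and ACAN (0.88), as did mid pressure (1.64 and 1.59). Signs turned for VCAN over all phases (-0.22) and in early scar (-0.11) in hyper against hypo, and for ACAN mid (-0.36) and late against control (-1.49, past the threshold). They also turned for the pressure effect in hyper minus hypo mid scar of ACAN (-1.58) and SHAS2 (-1.45), and for SHAS2 late against control (-0.24), late hyper against hypo (-0.01) and late pressure (-0.18). TNFAIP6 turned in late against early (0.64), late against mid (0.54) and early hyper against hypo (0.14).

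In animal 50 alone, mid against early was lost for VCAN (-0.68), ACAN (-1.09) and SHAS2 (-1.60), late against early for VCAN (-0.96) and late hyper against hypo for TNFAIP6 (1.70), while ACAN passed against control in mid (1.60) and late scar (1.5). Signs turned for VCAN late pressure (0.17), for hyper against hypo of ACAN over all phases (0.70) and early (0.13), of SHAS2 over all phases (0.35) and of TNFAIP6 mid (0.07). They also turned for TNFAIP6 early against control (0.29), pressure (0.46) and late pressure (0.39).

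Alternatives chosen after seeing the data left out arrays together. Without 2 scar arrays of highest hair and gland score, VCAN (-1.22) and ACAN (-1.79) mid against early and TNFAIP6 late hyper against hypo (1.68) were lost, and hyper against hypo turned for VCAN early (-0.03) and ACAN over all phases (0.05). Without 3 arrays of highest muscle score, late hyper against hypo passed for VCAN (1.84) and ACAN (2.13) and was lost for TNFAIP6 (1.63), and SHAS2 mid against control passed (1.04). Signs turned for VCAN early hyper against hypo (-0.28) and late pressure (0.42), ACAN (0.36) and SHAS2 (0.04) over all phases, and TNFAIP6 early hyper against hypo (0.17) and pressure (0.16). Without the 2 late hypo arrays of animal 50, TNFAIP6 late hyper against hypo was lost (1.07), and signs turned for ACAN late against control (-0.11) and over all phases (0.07) and TNFAIP6 late against mid (0.15).

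With 1 array left out at a time, VCAN ran from 1.09 to 1.64 in late against control (lost 1 time of 12), from -1.71 to -1.25 in mid against early (lost 8 of 12), from -0.30 to 0.31 in early hyper against hypo, from -0.58 to 0.44 in late pressure and from -0.01 to 1.76 in the pressure effect in hyper minus hypo mid scar. ACAN ran from -0.38 to 0.39 in late against control, from -2.31 to -1.65 in mid (lost 8 of 12) and -2.68 to -1.78 in late against early (lost 1 of 12). It ran from -0.27 to 0.25 over all phases and -0.45 to 0.06 in early hyper against hypo, from -0.56 to 0.99 in late pressure and from -0.58 to 1.90 in the pressure effect in hyper minus hypo mid scar. SHAS2 ran from 0.62 to 1.07 in mid against control (passed 2 of 12), from -0.12 to 0.38 in late against control, from -2.75 to -1.92 in mid against early (lost 1 of 12), from -0.32 to 0.01 over all phases, from -0.39 to 0.61 in late pressure and from -0.13 to 1.65 in the pressure effect in hyper minus hypo. TNFAIP6 ran from -0.35 to 0.33 in early against control, from -1.15 to -0.47 in late against control (passed 1 of 12) and from -0.42 to 0.12 in late against mid. It ran from -0.24 to 0.26 in early and 1.15 to 2.22 in late hyper against hypo (lost 6 of 8), and in pressure from -0.29 to 0.25 over both phases, -0.02 to 0.75 in mid and -0.94 to 0.13 in late scar.

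The change of the TNFAIP6 hyper minus hypo difference from mid to late scar lost its call without the background cap (2.13), with no filter on dim probes (2.46), in animal 50 alone (1.62), and without the 2 late hypo arrays of animal 50 (1.86), the 3 arrays of highest muscle score (2.01) or the 2 of highest hair and gland score (2.21). With 1 array left out it ran from 1.93 to 3.0 and was lost 9 times of 16.

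Over all features, the count called in mid against early sham scar was 1211, from 24 to 1787 with 1 array left out and from 2 to 2503 over the other alternatives. In late against early it was 3743, 2150 to 3666 and 11 to 5696, both lowest without the background cap. In late hyper against hypo it was 942, 31 to 1480 and 0 to 2775.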
